A study of Bos taurus with 4 samples.

Results

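The 8 subunits of DNA polymerases epsilon and delta, POLE, POLE2, POLE3, POLE4, POLD1, POLD2, POLD3 and POLD4, were followed in buffalo sperm RNA. They are 8 of the 32429 gene names on the array and were found by gene name among the probes that are not controls, which gave 16 of 51282 probes, on 17 spots. POLE4 drew attention to the group because of its large difference between the fertility groups, so all differences of the members are given as descriptions. No p is printed for a member, and a count of members past a threshold stands beside the share of all probes and supports nothing.

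DNA polymerases epsilon and delta copy the bulk of the nuclear genome in dividing cells. Epsilon extends the leading strand, and delta makes the short fragments of the lagging strand and fills gaps in DNA repair. POLE and POLD1 carry the catalytic sites, POLE2 and POLD2 are the regulatory subunits that hold each enzyme together, and the remaining members are accessory subunits. POLE3 and POLE4 form a pair with a histone fold, which binds DNA and also handles histones behind the fork. Sperm no longer divide, and their RNA is held to be largely left over from the formation of the cell in the testis.

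RNA came from spermatozoa of Murrah buffalo breeding bulls, selected on a Percoll gradient and hybridized with the dye Cy3. The high-fertile group held 2 pools and the low-fertile group held 2 and every pool joined 2 bulls. The array was designed for cattle (Bos taurus), which is also the organism that the labels name, while the animals were water buffalo. Which bulls went into which pool is not given, so the pool is the replicate. All 4 arrays were on 1 slide and in 1 scan, with the high-fertile pools in a different row of the slide from the low-fertile pools, so the row and the fertility of the bulls cannot be told apart. An array holds 1 number per probe for all cells of a pool: fewer cells of a type and less RNA per cell cannot be told apart.

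The software marked 23271 and 23228 of the 51282 probes as well above background in high-fertile pools 1 and 2, and 25642 and 13033 in their low-fertile counterparts 1 and 2. The labelled cell type was checked against 14 sperm genes, of which 6, 5, 9 and 3 were well above background in the same order, while AKAP4, HSPA1L, LDHC and SMCP, which sperm are known for, were so on no array. The summed signal of the sperm genes was between 524 and 729. Of 9 leukocyte genes, 7, 7, 7 and 4 were well above background, with a summed signal between 20180 and 28402, and CD3E and S100A9 were so on no array. Of 6 epithelial genes 4 were well above background on every array, without CDH1 and EPCAM, at a summed signal of 730 to 742, and of 4 red cell genes 1, 2, 3 and 2 were, without ALAS2, at 187 to 312. Genes of dividing cells, the setting in which these polymerases work, were well above background for 8, 6, 7 and 4 of 13. BUB1, CCNA2, CCNB1, CDK1 and TYMS were so on no array, and the summed signal was 7946 to 12678. Most of that sum came from a bright TK1 probe, at 7.8, 7.6, 8.4 and 8.4 on a log2 scale set within each array. AURKB and RRM2 reached at most 2.09 and 2.07 on that scale, so the sum stands mainly for TK1 and not for the list. The part of any of these cells in the values below was not tested.

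The probes are DNA strands of 60 bases fixed to the glass, and a bovine strand measures a buffalo transcript only as well as it pairs with it. Positions are those of the cattle build Btau_3.1 as the scanner files give them, and whether a probe lies in a coding exon or an untranslated region is not given there. The POLE4 probe is printed because the group turns on it, and that of POLE3 because the 2 proteins pair. The 5′ 30 bases of each are:
POLE4, chr11:9937098-9937157, forward strand: tctggcctggatgcagctgcttgtggtaga
POLE3, chr8:107975577-107975636, reverse strand: ttggagattgaagggtagtgaagtgtagtt

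The probes of POLE2 are printed because they are not independent readings: they overlap, and the capitals mark the stretch of 16 bases that the printed 5′ ends hold in common. The first reaches over 42747019 to 42750465 on chromosome 10, which is wider than the probe.
POLE2, chr10:42747019-42750465, reverse strand: tagaagatagcaaaCTTCAAGGGTTTTGAG
POLE2, chr10:42747005-42747064, reverse strand: CTTCAAGGGTTTTGAGattcttagaccatc

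The last printed probes are 3 of the tested probes of the delta enzyme: the 2 marked as well above background on every array, and the POLD3 probe nearest the 3′ end. That of POLD2 is whole, and those of POLD4 and POLD3 are the 5′ 30 bases.
POLD2, chr4:79948901-79948960, forward strand: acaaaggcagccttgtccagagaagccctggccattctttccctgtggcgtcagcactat
POLD4, chr29:47170360-47170419, reverse strand: acctcctgcctgctacttgagaaccggaca
POLD3, chr15:53537266-53537325, forward strand: aaacctctggtgctggtggagttctgtctt

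The share of G and C bases ran from 35% to 60% over the 16 probes with a median of 45%, and the median over all probes was also 45%. The RefSeq accession of each member's probes matched the same symbol in the current cattle annotation for 8 of 8 genes. No spot of a member was saturated, and 0 lay on a bright patch of an array.

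The POLE4 transcript, which codes for the small histone-fold subunit, was measured well above background only in the high-fertile pools. Its processed signal, which is the brightness after the scanner software took off the background, was 154 for high-fertile pool 1 and 168 for high-fertile pool 2, against 13.5 for low-fertile pool 1 and 6.03 for low-fertile pool 2. The groups lay far apart, and the value of low-fertile pool 2 is a surrogate that the software writes for a spot not above its background. On the normalized scale, log2 of the processed signal with the 75th percentile of each array set to 0, the levels were 2.07 and 2.18 against -1.45 and -2.44. The group means were 2.12 ± 0.077 (SD, n = 2) and -1.95 ± 0.70 (SD, n = 2), a difference of -4.07 with a standard error of 0.33 in limma. The 4 possible pairs of a low-fertile with a high-fertile pool differed by -3.52, -3.63, -4.51 and -4.62.

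Since POLE4 was not well above background in either low-fertile pool, its fold is a bound. With each low-fertile array set to the higher of its POLE4 level and the lowest level of any probe well above background there, POLE4 was at least 7.06-fold lower in the low-fertile pools. This bound belongs to the normalized scale above. With normexp, another background correction, which adds an offset, the POLE4 difference was -1.61. A probe is called tested here where at least 1 group had both of its arrays well above background. Of the 21033 tested probes, 8145 were tested through the high-fertile pair alone, as POLE4 was. Those 8145 probes had a median difference of -0.34, against -0.0047 over all tested probes.

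**Figure D1:**
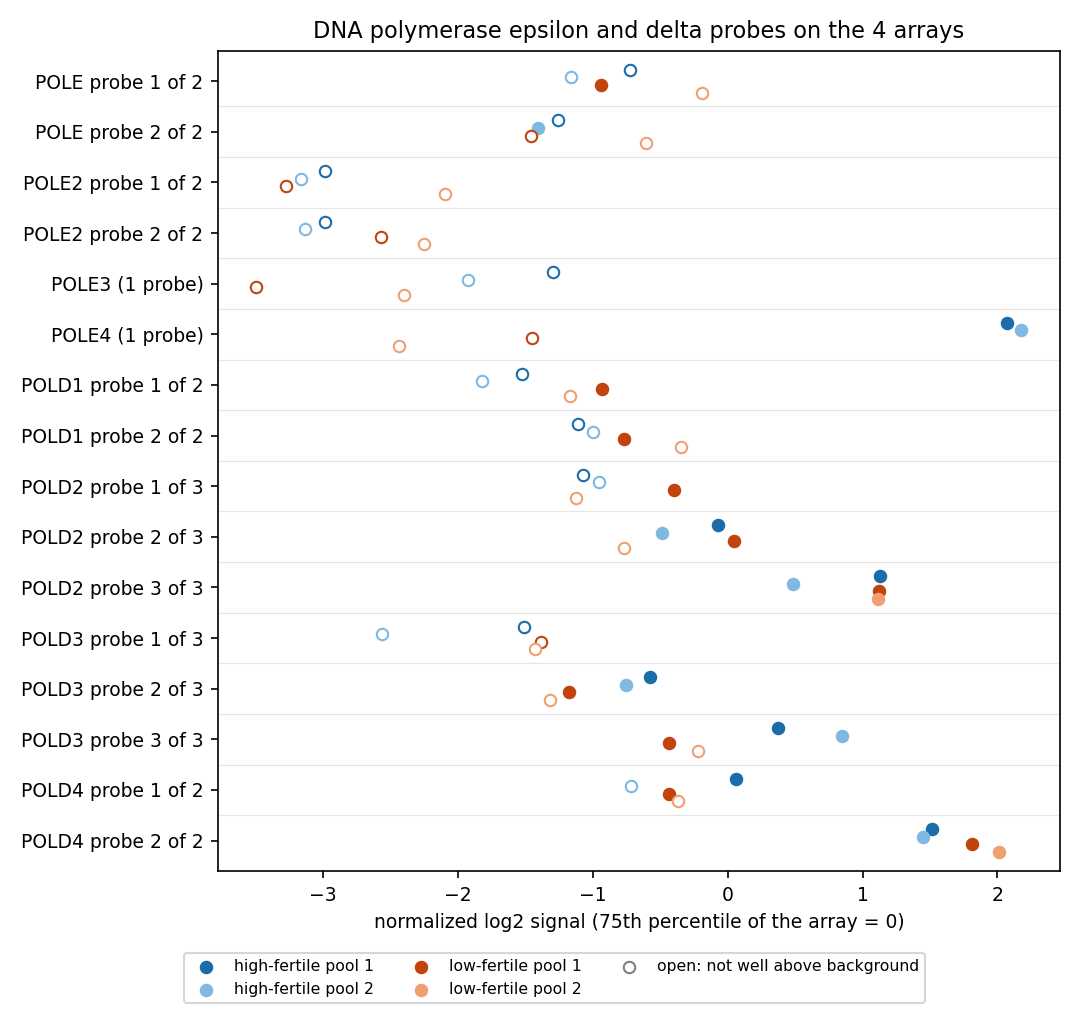
Normalized log2 signal (horizontal axis, 75th percentile of the array at 0) of the 16 probes of the members on the 4 arrays, with the probes of a gene numbered from the 5′ to the 3′ end of the transcript; filled points are well above background and open points are not. The POLE4 points of the high-fertile pools lie at 2.07 and 2.18 and those of the low-fertile pools at -1.45 and -2.44, while levels of different probes cannot be set against each other.

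The partners of POLE4 in the epsilon enzyme gave little signal in either group. POLE3, its direct histone-fold partner, had processed signals of 14.9 and 9.78 in the high-fertile group against 3.28 and 6.19 in the low-fertile group, and was well above background on no array. Its normalized levels were -1.30 and -1.92 against -3.50 and -2.40, so the low-fertile pools were both under the high-fertile ones, with a mean difference of -1.34. Both low-fertile values are surrogates. No fold is given, because neither group was well above background. The order of the groups for POLE3 is thus one among dim spots.

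POLE2, the regulatory subunit, was well above background on no array with either probe. The processed signals of the probe farther from the 3′ end were 4.63 and 4.14 against 3.82 and 7.65, all 4 of them surrogates. The overlapping probe gave 4.62, 4.23, 6.23 and 6.87, of which that of low-fertile pool 1 alone was not a surrogate. The normalized differences of 0.39 and 0.65 thus rest mostly on placeholders, and the probes share sequence.

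POLE, the catalytic subunit, was measured by probes at chr17:47060873-47060932 and chr17:47070391-47070449, forward strand. The former gave processed signals of 22.2 and 16.6 for the high-fertile pools against 19.3 and 28.6 for the low-fertile pools, and was well above background in low-fertile pool 1 alone. The groups overlapped, with a difference of 0.38 that turned to -0.0065 under spike-in centring. The latter gave 15.3 and 14.0 against 13.4 and 21.4, was well above background in high-fertile pool 2 alone, and differed by 0.30, or -0.084 under spike-in centring, with overlapping groups. It was spotted 2 times per array, and its spots in high-fertile pool 2 read 20.5 and 9.55, a gap of 1.104 on the log2 scale. The gap between spots of the same probe and RNA was 0.33, 0.22 and 0.24 on the remaining arrays, so this difference between the groups lay within the range that the spots themselves showed.

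POLD1, the catalytic subunit of delta, had probes at chr18:56523646-56523705 and chr18:56525562-56525621, forward strand, each well above background in low-fertile pool 1 alone. The 5′ probe gave processed signals of 12.7 and 10.5 for the high-fertile pools against 19.4 and 14.5 for the low-fertile pools. The 3′ probe gave 17.0 and 18.5 against 21.7 and 25.7. Both probes were higher in both low-fertile pools, by 0.62 and 0.50 on the normalized scale, with no overlap. Neither was tested, since no group had both its arrays well above background, and the differences came to 0.24 and 0.12 when the arrays were centred on spike-in RNA.

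POLD2, the regulatory subunit of delta, was measured on all 4 arrays and did not separate the groups. Its 3′ probe had processed signals of 80.3 and 52.0 among the high-fertile and 80.6 and 70.6 among the low-fertile pools. The normalized levels of 1.13, 0.49, 1.12 and 1.11 overlapped, and the difference of 0.31 (standard error 0.24) turned to -0.07 under spike-in centring. The middle probe, chr4:79947307-79947366, gave 35.0 and 26.4 against 38.3 and 19.2, a difference of -0.08 (standard error 0.31), or 0.02 after another background correction (normexp). Low-fertile pool 1 was the highest of the 4 and low-fertile pool 2 the lowest and the one not well above background. The 5′ probe, chr4:79946061-79946120, gave 17.5, 19.2, 28.0 and 14.9 with low-fertile pool 1 alone well above background, and its difference of 0.25 turned to -0.14 under spike-in centring.

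POLD3, the subunit that ties delta to the sliding clamp PCNA and is shared with the translesion polymerase zeta, had 2 tested probes, both of which entered through the high-fertile pair alone. Its 3′ probe had processed signals of 47.5 and 66.6 among the high-fertile and 27.4 and 28.0 among the low-fertile pools. The normalized levels were 0.37 and 0.84 against -0.43 and -0.22, a difference of -0.94 (standard error 0.21), with the groups apart. The middle probe, chr15:53536003-53536062, gave 24.6 and 22.0 against 16.4 and 13.1, a difference of -0.58 (standard error 0.15), also apart. Both were well above background on every array but that of low-fertile pool 2. There the lowest level of any marked probe was -0.15, which lies above all 4 levels of the middle probe, so its difference is one among values that this array would not have marked. The differences ranged from -1.32 to -0.30 for the 3′ probe and from -0.96 to -0.13 for the middle probe over the 5 other scalings.

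The 5′ POLD3 probe, chr15:53520449-53520508, ran the other way: its signals were 12.8 and 6.28 against 14.2 and 12.1, a difference of 0.63, and it was well above background on no array. A further probe on the array is named by the RefSeq accession of POLD3 in place of the symbol, has no position in the files and so is not among the 16. Its 2 spots averaged 22.4 and 19.6 against 21.1 and 6.30, and it was not well above background in low-fertile pool 2. Its difference was -0.78 with a standard error of 0.49. Low-fertile pool 1 lay between the high-fertile pools here, so low-fertile pool 2 alone set the difference.

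POLD4, the smallest subunit of delta, was well above background on all 4 arrays with its 3′ probe, whose processed signals were 105 and 101 against 130 and 132. The normalized levels of 1.51 and 1.45 against 1.81 and 2.01 did not overlap, and the difference was 0.43 (standard error 0.15), or 0.05 under spike-in centring. The 5′ probe, chr29:47171156-47171215, gave 38.4 and 22.6 against 27.4 and 25.2 and was well above background in 1 pool of each group. There the high-fertile pools enclosed the low-fertile pools, and the difference was -0.08.

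POLE4 was then set beside the other members by the difference of each, as a description of the gene for which the group was picked. Taken as measured, the difference of POLE4 minus those of the tested POLD3 probes was -3.13 and -3.49, minus those of the tested POLD2 probes -3.99 and -4.38, and minus that of the tested POLD4 probe -4.50. With POLE4 at its bound of -2.82 these became -1.88 and -2.24 for POLD3, -2.74 and -3.13 for POLD2 and -3.25 for POLD4. Against POLE3 the bound gave -1.48, with the POLE3 side itself among dim spots and surrogates. No other epsilon subunit had a tested probe, so the 5 tested probes beside POLE4 are all of the delta enzyme. The middle POLD2 probe and both POLD3 probes were not well above background in low-fertile pool 2, so values against these are no bounds. Relative to the median of the 5 probes, which is that of the middle POLD2 probe, POLE4 stood at -3.99 as measured and -2.74 at its bound. With normexp, which adds an offset that shrinks the differences of dim probes, the measured value was -1.63. Without low-fertile pool 2, POLE4 itself stood at -3.58 and without low-fertile pool 1 at -4.56.

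**Figure D2:**
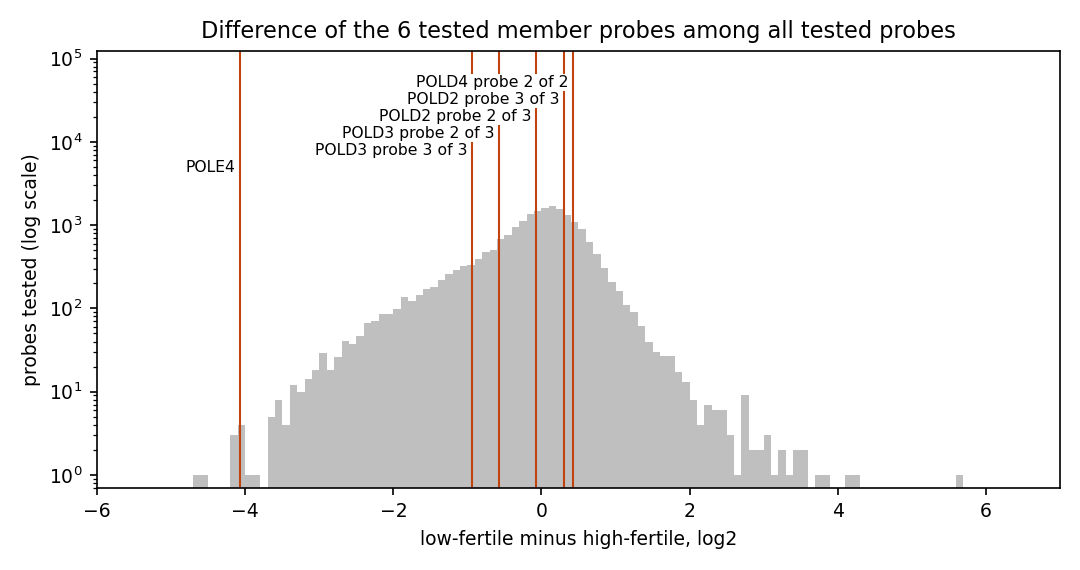
Histogram of the low-fertile minus high-fertile difference (horizontal axis, log2) over the 21033 tested probes, with the number of probes on a log scale, and the 6 tested probes of the members as vertical lines. POLE4, picked for this difference, is drawn at its measured -4.07, of which the data bear a bound of -2.82, and the lines of POLD3, POLD2 and POLD4 lie between -0.94 and 0.43.

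Counted over the group, 6 of the 16 probes, from 4 of the 8 genes, were tested, and 4 of these 6 through the high-fertile pair alone. A probe that enters in this way is already lower, or dimmer against its background, in a low-fertile pool. In limma 3 of the 6 had an adjusted p under 0.05 and were lower and 0 were higher, over a background of 26.8% of the tested probes in either direction, 17.6% lower and 9.22% higher. Of the probes tested through the high-fertile pair alone, 30.1% were lower. Because POLE4 was picked on this contrast and 4 of the 6 entered through the group where they are high, nothing is read from these counts. The groups did not overlap for 4 of the 16 probes with the low-fertile pools lower, where 22.5% of all probes did so, and for 5 with the low-fertile pools higher, where 26.5% did. They overlapped for 7.

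The median difference of the 16 probes was 0.30, against 0.12 over all probes. Under spike-in centring it was -0.08, and that scaling moved the median of the tested probes from -0.0047 to -0.39. Of the 10 probes that were not tested, 8 had a difference above 0, as had 63.6% of all untested probes.

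Detection of the members differed between the arrays. Each high-fertile array had 7 of the 16 probes well above background, or 43.8%, where all probes had 45.4% and 45.3%. The array of low-fertile pool 1 had 10, or 62.5%, where 25642 of 51282 probes had the mark. That of low-fertile pool 2 had 2, the 3′ probes of POLD2 and POLD4, or 12.5%, where all probes had 25.4%. The lowest normalized level marked as well above background was -0.15 in low-fertile pool 2 and between -1.24 and -1.11 on the remaining arrays, so a member had to be brighter there to be marked. By the weaker mark of a signal that is positive and significant, 14, 14, 14 and 12 of the 16 probes passed. On no array were POLE2 and POLE3 and the 5′ POLD3 probe well above background, which were 4 of the 16 probes, where 42.7% of all probes were so on none.

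**Figure D3:**
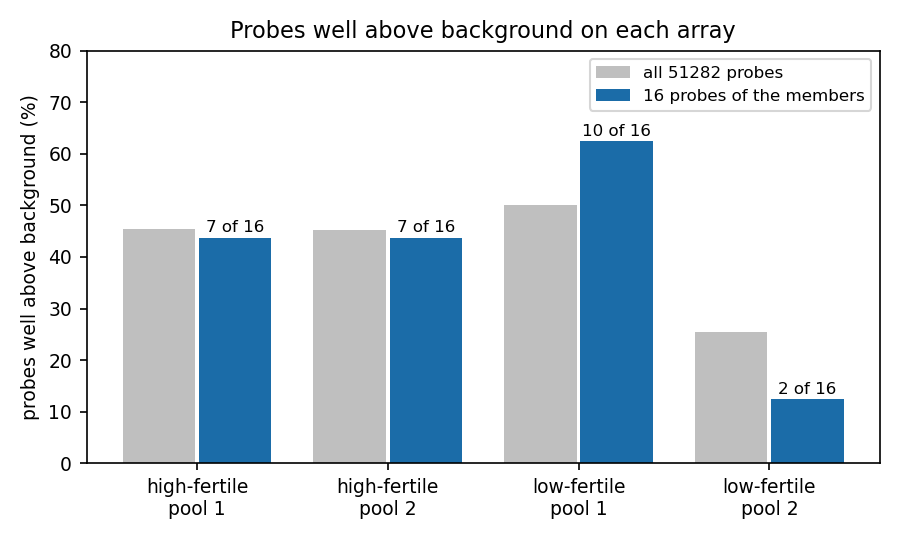
Share of probes well above background (vertical axis, percent) on each array, for all 51282 probes in grey and for the 16 probes of the members in blue, with the number of member probes over each bar. Low-fertile pool 2 has the lowest share of both, 25.4% and 12.5%.

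Within the genes that have several probes well above background somewhere, the 3′ probe was the one marked on most arrays or tied for it. From the 5′ to the 3′ end, the probes of POLD2 were well above background on 1, 3 and 4 arrays, those of POLD3 on 0, 3 and 3, and those of POLD4 on 2 and 4. The RNA was labelled from an oligo-dT primer, that is from the 3′ end, and whether this set the order of the probes was not tested. The probes of POLD1 were marked on 1 and 1 and those of POLE on 1 and 1.

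The genes nearest to POLE4 in pattern were sought among the tested probes by the root mean square distance of the 4 normalized levels, each probe first set to its own mean. The 5 nearest named genes were CHCHD2 at a distance of 0.11, RBM39 at 0.18, SMIM13 at 0.25, KXD1 at 0.27 and DLG5 at 0.35. CHCHD2 is a protein of mitochondria and nucleus and RBM39 a splicing factor. CHCHD2 (chr25:29584794-29584852) had levels of 3.54 and 3.53 against -0.15 and -0.86, a difference of -4.04. RBM39 (chr13:65491611-65491670) had 2.44 and 2.22 against -1.53 and -2.19, a difference of -4.19. The differences of SMIM13, KXD1 and DLG5 were -3.94, -3.53 and -3.38. Like POLE4, RBM39 and SMIM13 were well above background in neither low-fertile pool, and CHCHD2, KXD1 and DLG5 were not in low-fertile pool 2. The distances and differences of the 5 genes thus hold values among dim spots, and their order is only that of the measured values. This likeness rests on 4 arrays and on the same contrast for which POLE4 was picked.

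The genes that work with these enzymes at the replication fork for the most part did not pass the test. Of 51 symbols listed, 47 were on the array and 21 had a tested probe. In limma, with adjustment over all tested probes and each gene read from its tested probe of highest mean level, 2 fell in the low-fertile pools, 2 rose and 17 did not pass an adjusted p of 0.05. Over all 16521 genes read in this way, 16.7% were lower and 9.50% higher. Of the 21 genes, 5 entered through the high-fertile pair alone, both that fell among them, and 30.1% of all probes that entered so were lower, so the falls are no support for a direction of the list. None of the 4 calls held without the filter on dim probes in limma (5 fork genes at an unadjusted p under 0.05) or with the methods' t-test (6). The median difference was 0.19 on the list and 0.01 over all genes, and under spike-in centring that of the list was -0.19.

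PCNA, the ring that clamps delta and epsilon to DNA, fell. Its levels were 0.34 and 0.45 against -1.29 and -1.66, with no low-fertile value well above background, a difference of -1.87 (standard error 0.18, adjusted p = 0.0031 in limma). As a bound on the same normalized scale, PCNA was at least 2.13-fold lower in the low-fertile pools, and with normexp its difference was -0.59. That probe lies at chr13:47616506-47616565, and the others of PCNA were not tested and differed by -1.02 and -0.24. CHTF8, a part of an alternative loader of PCNA (chr18:35353049-35353108), had 0.53 and 0.85 against -0.29 and -0.19, a difference of -0.93 (standard error 0.17, adjusted p = 0.015 in limma), and was not well above background in low-fertile pool 2. Its adjusted p was 0.077 without high-fertile pool 2. CHTF18, which works with CHTF8, differed by -0.04 and RFC5, of the main loader, by 0.41, and neither passed.

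The 2 genes that rose act at origins before the polymerases are loaded. On the list 12 such genes were on the array and 3 were tested. CDT1, the remaining tested one, stood at 0.20 (adjusted p = 0.36 in limma) and did not pass. RECQL4, a helicase needed for the start of replication (chr14:203427-203486), had 0.63 and 0.59 against 1.55 and 1.64, a rise of 0.98 (standard error 0.14, adjusted p = 0.0075 in limma). TOPBP1, a scaffold that helps to activate the helicase at origins, had -0.49 and -0.35 against 0.21 and 0.10, a rise of 0.58 (standard error 0.15, adjusted p = 0.041 in limma). The untested probes of TOPBP1 differed by 0.16 and 0.017. The call of TOPBP1 was lost when any 1 of the 4 pools was left out, with an adjusted p up to 0.37 over 11 alternatives in limma (5 scalings, the stricter filter, the replicate block and each pool left out). Those of RECQL4 and PCNA held with each pool left out. The tested subunits of the helicase that carries epsilon (MCM3, MCM4, MCM5, MCM6, GINS1, GINS2 and GINS4) ranged from -0.12 to 0.40 with 0 calls among 7, too few genes to read against the 16.7% and 9.50% of all genes, and POLA1, the catalytic subunit of DNA polymerase alpha, which works with primase, stood at -0.28. LIG1, which seals the fragments made by delta, stood at 0.45 (adjusted p = 0.078 in limma).

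**Figure D4:**
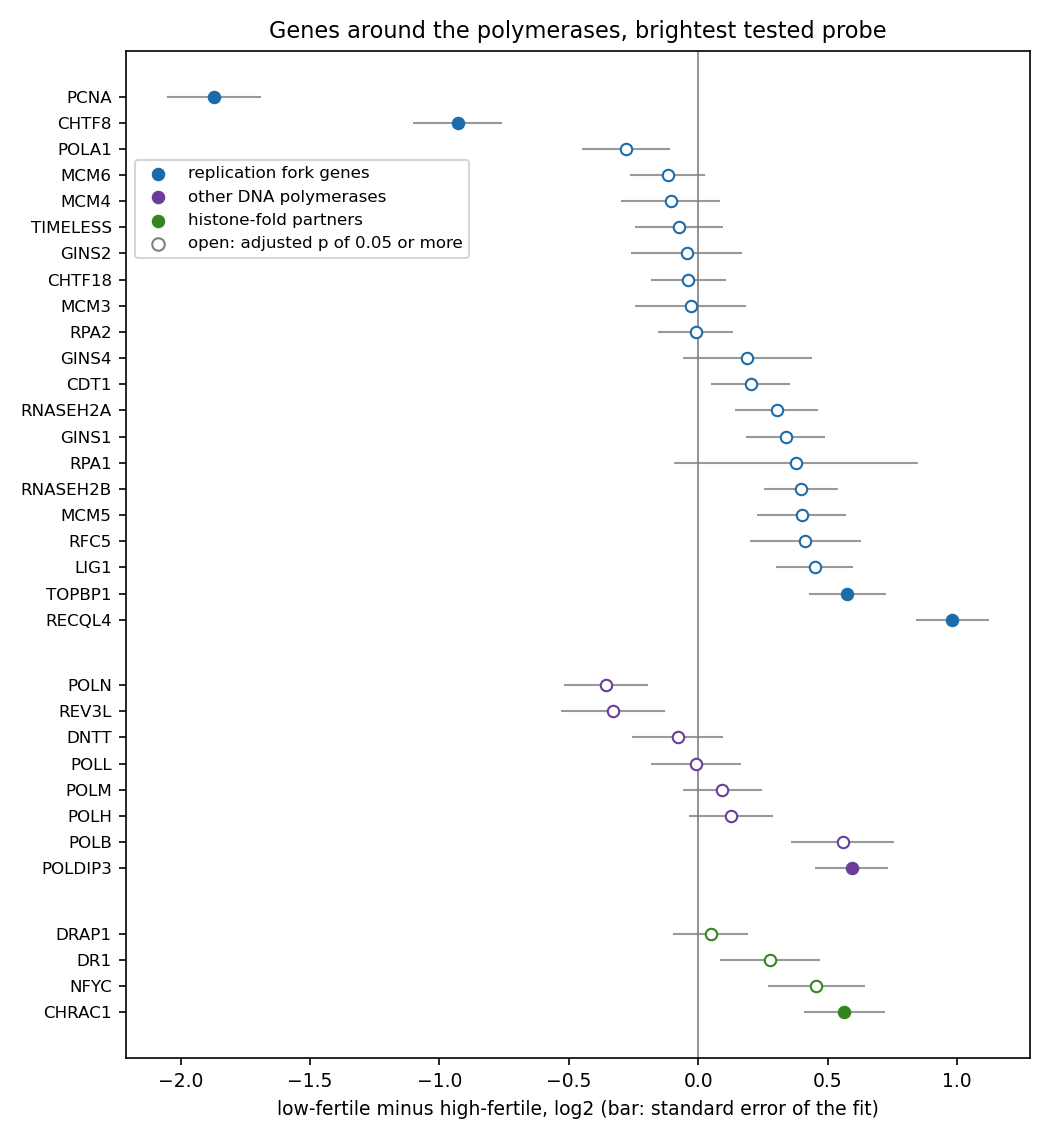
Low-fertile minus high-fertile difference (horizontal axis, log2) with the standard error of the fit as a bar, for the tested genes of the replication fork (blue), the other DNA polymerases (purple) and the histone-fold partners (green); filled points passed an adjusted p of 0.05 in limma. PCNA at -1.87 and CHTF8 at -0.93 lie to the left and RECQL4 at 0.98 to the right, with most genes between -0.4 and 0.6.

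Among 17 other DNA polymerases and polymerase partners, 16 were on the array, 8 were tested, 0 fell and 1 rose, beside the 16.7% and 9.50% of all genes. The median was 0.04, or -0.34 under spike-in centring. The gene that rose was POLDIP3, which binds a delta subunit, at 0.59 (standard error 0.14, adjusted p = 0.032 in limma) on its probe of highest mean level. Another of its probes passed in the other direction, at -0.71 (adjusted p = 0.030 in limma), marked in the high-fertile pair alone, so POLDIP3 has no settled direction. Its call was lost when any 1 pool was left out. POLB, the short-gap repair polymerase, stood at 0.56 and POLN, of family A, at -0.36, and neither passed.

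A list of histone-fold partners held 7 genes, either of a complex with POLE3 or of related histone-fold pairs. Of the 7, 4 were tested, 0 fell and 1 rose, beside the 16.7% and 9.50% of all genes, and the median of 0.37 came to -0.015 under spike-in centring. CHRAC1, which pairs with POLE3 in a chromatin remodelling complex, had -0.35 and -0.13 against 0.28 and 0.36, a rise of 0.56 (standard error 0.16, adjusted p = 0.049 in limma), lost in 8 of the same 11 alternatives, each left-out pool among them, as well as without the filter and with the methods' t-test. The untested probes of CHRAC1 differed by 0.22, 0.50 and 0.037 and were well above background on no array. Genes of dividing cells gave 2 falls and 2 rises among 6 tested, beside the 16.7% and 9.50% of all genes, with a median of -0.02, or -0.41 under spike-in centring. None of these 4 calls held without the filter on dim probes in limma or with the methods' t-test. Of the 6, 2 entered through the high-fertile pair alone. RRM2, a subunit of the enzyme that makes the building blocks of DNA, fell by 1.85 (adjusted p = 0.0024 in limma). Its other probes were well above background on no array and differed by -0.50 and -0.0056. CCNB2, a mitotic cyclin, fell by 0.58 (adjusted p = 0.042 in limma). It entered through the high-fertile pair alone and was not well above background in low-fertile pool 2. TK1, the thymidine salvage kinase, rose by 0.66 (adjusted p = 0.028) and BUB1B, a spindle checkpoint kinase, by 0.60 (adjusted p = 0.038), but another BUB1B probe passed in the other direction at -1.55 (adjusted p = 0.027), marked in the high-fertile pair alone, so BUB1B has no settled direction. Of these 4, the calls of CCNB2, TK1 and BUB1B were lost when any 1 pool was left out.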

How the data were processed

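Sperm RNA of 2 high-fertile and 2 low-fertile pools was measured on 4 one-colour cattle arrays. The authors extracted the images with Agilent Feature Extraction 11.5.1.1 and shifted log2 signals by the 75th percentile in GeneSpring GX 12.6. The deposited scanner output holds linear intensities after background subtraction, with a surrogate for spots not above background. The deposited table of log2 values, taken after that shift, served as an alternative.

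Spots flagged as outliers were dropped, spots of the same probe were averaged on the log2 scale, and each array was shifted by its own 75th percentile. A probe carried a mark where at least 0.5 of its spots did. The tested probes were compared with limma 3.58.1 in R 4.3.3 with Benjamini-Hochberg adjustment (prior degrees of freedom 3.52), after a check on simulated data. Tables and plots used Python 3.11.15, pandas 2.3.3 and matplotlib 3.10.9. The number of arrays limits precision. The p-values measure only the spread between arrays, which joins that between pools with that of the hybridization. In limma that spread is also drawn in part from all tested probes.

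The members and gene lists were chosen with earlier results of these data known. Named genes are all members, up to 5 passing genes with the largest difference per list and direction, and the 5 nearest to POLE4. Genes of the lists that did not pass and are named beside these were chosen after their values were seen. The replicate numbers were not used to pair the pools in the main fit. The deviations of same-numbered pools had r = 0.0055 over 21024 probes, which cannot settle whether those pools belong together.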

Additional observations from a re-analysis of the deposited data

How the results depend on the processing

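The difference of POLE4 ranged from -4.56 to -1.61 over the alternatives. The members' median of 0.30 was -0.078 under spike-in centring and 0.13 to 0.41 with 1 pool left out. POLE4 relative to the median of the tested delta probes (-3.99) was -1.63 with normexp and -4.26 to -3.73 with 1 pool left out. The 6 tested member probes became 14 when a positive and significant signal was enough. Over all probes, 5632 calls (65.6% lower; 8741 at unadjusted p under 0.05) became 2640 to 4989 with 1 pool left out, the lowest without high-fertile pool 2 (2872 without pool 1 of that group), 0 with the methods' t-test (6084 unadjusted) and 0 without the filter on dim probes (9278 unadjusted, limma). Spike-in centring made 92.4% of the calls lower, and the 12552 probes marked on all 4 arrays gave 37.5% lower. The replicate block gave 5331 calls.

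Fork genes (4 calls) gave 0 with the t-test (6 unadjusted) and without the filter (5 unadjusted), and 2 to 4 with 1 pool left out, 2 of them without high-fertile pool 2. Other polymerases (1 call) gave 0 with the gene's median probe, the t-test, no filter, the replicate block and each pool left out (0 to 0), and 2 with normexp, spike-in centring and probes marked on all 4 arrays. Histone-fold partners (1 call) gave 0 with the deposited table, the t-test, no filter, normexp, spike-in centring, the replicate block and each pool left out (0 to 0). Genes of dividing cells (4 calls) gave 2 with the gene's median probe, the replicate block and spike-in centring, 0 with the t-test and no filter, and 1 to 1 with 1 pool left out. With the gene's median probe BUB1B turned to -0.47 and POLDIP3 to -0.058, because their tested probes differ in sign. Elsewhere the cause was not tested. A slide or scan block was not run, since there is 1 slide and 1 scan.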
